A study of Mus musculus with 12 samples.

Results

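The 12 tongue libraries of this series were ordered by a neutrophil score, and the 3 libraries with the highest score, Vehicle 4, Vehicle 5 and GA 2, were set beside the other 9. These 3 of 12 libraries are called neutrophil-rich here. They were chosen by measured values, namely the mean of log2(FPKM + 0.1) over S100a8, S100a9, Csf3r, Cxcr2 and Clec4d, where FPKM are reads divided by gene length and library total. No label names an inflamed or neutrophil-rich group, and differences between the 3 and the 9 are therefore descriptions without a test, since the genes of the score and the genes described were read from the same libraries. All 12 libraries came from C57BL/6 mice, bought at 5 weeks of age, that drank 100 µg/mL of the carcinogen 4-nitroquinoline 1-oxide (4NQO) for 16 weeks. The mice of the 6 GA libraries were gavaged with gallic acid (100 mg/kg) on 5 days a week, starting 4 weeks into the carcinogen, and those of the 6 vehicle libraries received the methyl cellulose carrier alone. The labels name the tissue as tumor and tumor-associated tongue, give each library a replicate number but no animal identifier, and do not say whether a given library came from a lesion. No library of a mouse without 4NQO was analysed here, so every comparison is between carcinogen-exposed tongues.

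Neutrophils are short-lived white blood cells that leave the blood for inflamed tissue along gradients of ELR chemokines, which they sense with the receptor Cxcr2. The growth factor G-CSF, read through Csf3r, drives their production and release from bone marrow. In tissue they carry the calcium-binding proteins S100a8 and S100a9, granules with proteases and antimicrobial proteins, and an oxidase that makes superoxide. In squamous epithelium keratinocytes also make S100a8 and S100a9 when stressed.

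The score was 5.50 in Vehicle 4, 6.21 in Vehicle 5 and 5.01 in GA 2, and between 1.72 and 3.46 in the other 9. The library just inside the cut was GA 2 at 5.01 and the library just outside was Vehicle 6 at 3.46. That gap of 1.55 was nearly as wide as the range of 1.73 among the 9. Below, values of the 3 libraries are always given in the order Vehicle 4, Vehicle 5 and GA 2, as FPKM scaled between libraries, and values of the 9 as lowest to highest with their median.

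**Figure D1:**
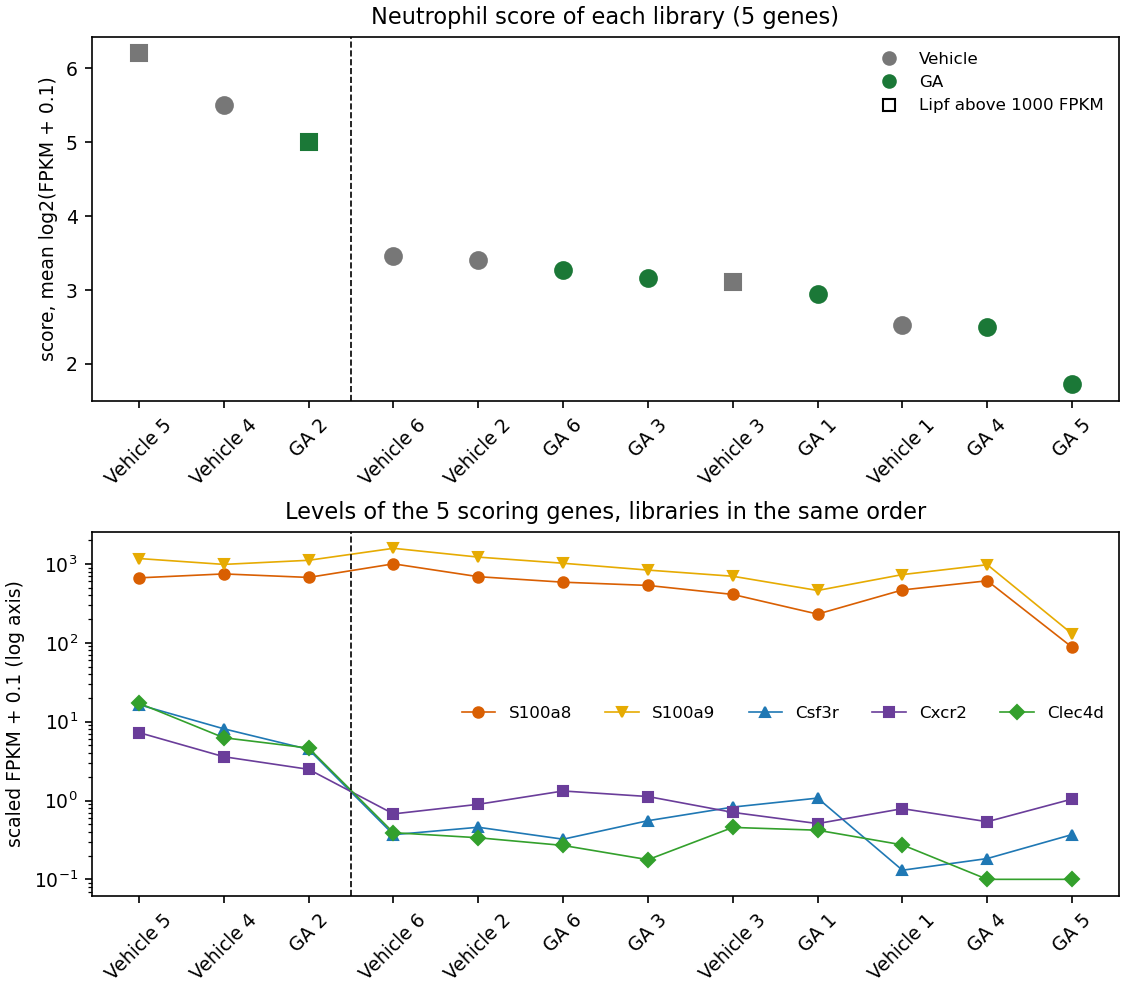
Neutrophil score of each library on a log2 scale (top) and scaled FPKM of the 5 scoring genes on a log axis (bottom), with libraries in order of score and a dashed line after the 3 highest; grey is vehicle, green is GA and squares mark libraries with Lipf above 1000 FPKM. The 3 highest scores lie between 5.01 and 6.21 and the other 9 at or below 3.46, and Csf3r, Cxcr2 and Clec4d drop across the line while S100a8 and S100a9 do not.

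The 5 scoring genes did not contribute equally. S100a8 (chr3:90668978-90670035 in GRCm38) stood at 748, 667 and 675 FPKM in the 3 libraries and at 87.8 to 1004 with a median of 534 in the 9, and S100a9 (chr3:90692632-90695721) at 988, 1173 and 1114 and at 129.9 to 1581 with a median of 837. Both calprotectin genes thus overlapped between the sides, and Vehicle 6, outside the cut, held the highest level of each. Csf3r (chr4:126024550-126044440) stood at 8.01, 16.3 and 4.35 FPKM against 0.0305 to 0.973 with a median of 0.27. Cxcr2 (chr1:74153989-74161246) stood at 3.49, 7.17 and 2.39 FPKM against 0.41 to 1.22 with a median of 0.688. Clec4d (chr6:123262111-123275265), a C-type lectin receptor of myeloid cells, stood at 6.15, 17.03 and 4.52 FPKM against 0 to 0.355 with a median of 0.174. For these 3 receptors each of the 3 libraries lay above each of the 9. A score of Csf3r, Cxcr2 and Clec4d alone selected the same 3 libraries, with 1.86 as the lowest of the 3 and -0.68 as the highest of the 9.

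Library totals recovered from the FPKM values ran from 18062352 to 25160683 reads, with 20633510 to 23976385 in the 3 libraries. Lipf, the lipase of lingual glands, exceeded 1000 FPKM in Vehicle 3, Vehicle 5 and GA 2, that is in 2 of the 3 neutrophil-rich libraries and in 1 of the 9. Gland presence was therefore a covariate of each difference between the 3 and the 9, but not of the comparison of GA with vehicle. Without this covariate, differences were also read among libraries of like gland content, as Vehicle 4 minus the 8 others without gland and as Vehicle 5 and GA 2 minus Vehicle 3. The difference fitted with the covariate is a weighted mean of both, with the larger weight on the contrast of Vehicle 4. It is therefore not the plain difference between the mean of the 3 and the mean of the 9. Y-linked reads were present in 1 of the 3 (Vehicle 4) and in 4 of the 9 (Vehicle 1, Vehicle 2, Vehicle 3 and GA 1). They were thus spread unevenly over treatment, and the comparison of GA with vehicle had no covariate for them. Of the markers that define the neutrophil lineage, Ly6g had 0 reads in all 9 libraries and at most 4 reads in any of the 3, and Elane, a granule protease transcribed in the bone marrow, had 0 reads in all 12. The label neutrophil-rich thus rests on receptor and cytosolic genes, not on Ly6g or on primary granule genes.

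Over 16847 genes that averaged 0.1 FPKM or more, the 5 scoring genes left out, a gene was called apart when its log2 difference between the 3 and the 9 was at least 1 in size, a 2-fold difference, and its 3 values did not overlap the 9. By this rule 200 genes were higher in the neutrophil-rich libraries (1.19% of those tested) and 10 were lower (0.0594%). Because the split was selected on these same libraries, nothing is read from either share. The median difference over all genes was 0.02. In bulk tissue, a higher value can come from more cells of a type or from more RNA per cell, and these cannot be told apart. Of the 200 genes, 82 had a log2 difference of at least 2 and 35 of at least 3, and 100 averaged 1 FPKM or more. On 1 of the gene lists used below stood 65 of them, and 135 stood on none. A gene could pass the level filter through the 3 libraries alone, so counts on a list describe its tested genes, not the whole list. Each difference is given with its standard error (SE) from limma, which covers the spread between libraries but not the choice of the split.

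Surface receptors of neutrophils and related myeloid cells made up the list with the most genes apart: 16 of 24 tested were higher and 0 lower, with a median difference of 1.52. Trem1, a receptor that amplifies inflammatory signals in myeloid cells, stood at 3.29, 6.54 and 2.11 FPKM in the 3 and at 0.0184 to 0.274 with a median of 0.0548 in the 9, a log2 difference of 3.87 (SE 0.47). Fpr1, which senses formylated bacterial peptides, stood at 1.08, 4.92 and 0.722 FPKM against 0 to 0.117 with a median of 0, a difference of 3.78 (SE 0.58). In both genes the 3 libraries lay clear of the 9, with Vehicle 5 highest. Clec4e, the lectin receptor Mincle, stood at 2.15, 5.3 and 0.924 FPKM against 0.00979 to 0.158 with a median of 0.1001, a difference of 3.57 (SE 0.55). Trem3, Cd300lf and Mrgpra2b had differences of 3.30, 2.91 and 2.72, and at least 1 of the 9 libraries was at 0 for each. Mrgpra2b has a close copy in Mrgpra2a, so the division of reads between them is uncertain. Named after their values were seen, the chemoattractant receptors Fpr2 and C5ar1 and the integrin chain Itgam also stood apart, at 2.71, 2.37 and 1.16.

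Receptors on the same list with high levels in every library did not stand apart. Hcar2, a receptor for hydroxybutyrate and niacin, stood at 32.3, 34.1 and 26.8 FPKM in the 3 and at 23.03 to 46.2 with a median of 34.5 in the 9. Ltb4r1, a leukotriene B4 receptor, stood at 22, 19.1 and 20.4 FPKM against 12.3 to 22.5 with a median of 17.5. Il1r2, the decoy receptor for IL-1, stood at 14.1, 14.9 and 7.34 FPKM against 3.58 to 16.2 with a median of 9.08. In all of these the sides overlapped, with differences of 0.09, 0.37 and 0.37. Summed over the list, the level was 101, 144 and 86.1 FPKM in the 3 and 58.2 to 90.7 with a median of 75.1 in the 9.

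Among granule and cytosolic proteins of neutrophils, 9 of 23 genes tested were higher and 0 lower, with a median of 1.35. Stfa2l1 (chr16:36156811-36161953), a stefin-type inhibitor of cysteine proteases, had the largest difference of all, 5.50 (SE 0.81), with 5.8, 21.8 and 4.2 FPKM against 0 to 0.324 with a median of 0.23. Stefin genes are near-copies of each other, so its reads may be shared, and its relative Stfa3 had a difference of -0.23 with overlapping sides. Acod1 (chr14:103046977-103056573), which makes itaconate in activated myeloid cells, stood at 6.76, 11.7 and 2.41 FPKM against 0 to 0.235 with a median of 0.0879, a difference of 4.79 (SE 0.58). Mmp9, the gelatinase stored in neutrophil granules, stood at 10.8, 14.9 and 2.22 FPKM against 0.0312 to 1.34 with a median of 0.496, a difference of 3.77 (SE 0.80). Its value in GA 2 was the closest of the 3 to the 9, while Vehicle 4 and Vehicle 5 were far above them. Retnlg, a resistin-like protein of neutrophils, stood at 9.5, 20.1 and 5.39 FPKM against 0 to 2.05 with a median of 0.287, and Hdc, which makes histamine, at 2.33, 4.96 and 0.939 FPKM against 0.0689 to 0.26 with a median of 0.152. Their differences were 3.75 (SE 0.88) and 3.28 (SE 0.51). Haptoglobin, Hp, stood at 12.1, 30.9 and 24.5 FPKM against 0.054 to 11.5 with a median of 0.366. Its difference was 4.86 without gland but 1.26 with gland, the widest such contrast among the granule genes named.

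Granule genes that are transcribed during maturation in the marrow differed in level. Mpo, Prtn3, Ctsg and Camp were below the level filter, with at most 6 reads in any library. Ngp had 4 to 8 reads in the 3 libraries and 0 to 2 in the 9. Mmp8, neutrophil collagenase, named after its values were seen, was low but stood apart, at 0.409, 2.91 and 0.498 FPKM against 0 to 0.0634 with a median of 0. Lcn2, lipocalin-2, which epithelium also expresses, named after its values were seen, stood at 9.998, 19.8 and 21.5 FPKM against 1.17 to 10.9 with a median of 3.29, with overlap through Vehicle 4. Nlrp12, an NLR gene of myeloid cells, had 15 to 64 reads against 0 to 2. The lactoferrin gene Ltf, which glands also express, stood at 0.15, 71.6 and 121 FPKM, high where Lipf was high and near 0 in Vehicle 4. The epidermal protease Asprv1 was high everywhere, at 333, 433 and 271 FPKM in the 3 and 129 to 1862 with a median of 517 in the 9, with no separation.

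The phagocyte NADPH oxidase assembles from membrane and cytosolic subunits to make superoxide. Among its cytosolic subunit genes Ncf4 (p40phox) stood apart, at 1.86, 3.14 and 1.95 FPKM against 0.356 to 1.45 with a median of 0.707, a difference of 1.33 (SE 0.40). The catalytic subunit gene Cybb, also expressed by macrophages, stood at 1.12, 2.99 and 2.04 FPKM against 0.311 to 3.36 with a median of 1.11. Its sides overlapped, as did those of Cyba, Ncf1 and Rac2, whose differences were 0.82, 0.53 and 1.26. The median difference of the 6 genes on the list was 1.03.

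Ligands and growth factors that call and sustain neutrophils were higher in 11 of 19 genes tested and lower in 0, with a median difference of 2.27, the largest of any list. Their summed level was 116, 231 and 155 FPKM in the 3 and 16.7 to 59.9 with a median of 32.1 in the 9, so the sides did not overlap. The ELR chemokines that bind Cxcr2 were on this list. Cxcl1 (chr5:90891241-90893115) stood at 12.9, 11.4 and 3.97 FPKM in the 3 and at 0.339 to 2.24 with a median of 0.768 in the 9, a difference of 3.46 (SE 0.55). Cxcl2 (chr5:90903871-90905938) stood at 11.6, 18.3 and 3.42 FPKM against 0.0418 to 0.782 with a median of 0.202, a difference of 4.53 (SE 0.71). Cxcl3 (chr5:90786103-90789600) stood at 3.003, 9.17 and 1.94 FPKM against 0 to 0.523 with a median of 0.145, a difference of 3.88 (SE 0.71). The 3 libraries exceeded all 9 in each chemokine, and GA 2 was the lowest of the 3 in each. Cxcl5 (chr5:90759360-90761624), an epithelial chemokine of the same cluster on chromosome 5, stood at 33.3, 66.8 and 37.99 FPKM against 0.0788 to 6.98 with a median of 0.509, a difference of 4.61 (SE 1.02). Its highest value among the 9 was that of Vehicle 3, the only gland-bearing library outside the 3, and its difference was 5.94 without gland and 2.83 with gland. The platelet chemokines Ppbp and Pf4, encoded in that cluster as well, had differences of 1.99 and 1.06 and overlapped between the sides.

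The bases before the starts of Cxcl1, Cxcl2 and Cxcl3 are shown because these neighbouring genes were high in the same libraries and hold the same sequence block. The windows are the 250 bases before the RefSeq start (GRCm38.p6, plus strand, chr5:90890995-90891244, chr5:90903649-90903898 and chr5:90785851-90786100), with matches to the NF-kB consensus in capitals.
Cxcl1: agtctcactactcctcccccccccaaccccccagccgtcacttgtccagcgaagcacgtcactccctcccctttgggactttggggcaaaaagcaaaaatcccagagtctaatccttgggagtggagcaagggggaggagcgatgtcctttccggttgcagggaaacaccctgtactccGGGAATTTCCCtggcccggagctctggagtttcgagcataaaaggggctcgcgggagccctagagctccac
Cxcl2: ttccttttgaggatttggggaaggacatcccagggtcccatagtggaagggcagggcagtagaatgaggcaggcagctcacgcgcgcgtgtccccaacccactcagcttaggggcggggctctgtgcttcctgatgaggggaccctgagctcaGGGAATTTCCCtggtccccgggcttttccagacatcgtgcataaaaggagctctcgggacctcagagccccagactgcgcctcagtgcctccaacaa
Cxcl3: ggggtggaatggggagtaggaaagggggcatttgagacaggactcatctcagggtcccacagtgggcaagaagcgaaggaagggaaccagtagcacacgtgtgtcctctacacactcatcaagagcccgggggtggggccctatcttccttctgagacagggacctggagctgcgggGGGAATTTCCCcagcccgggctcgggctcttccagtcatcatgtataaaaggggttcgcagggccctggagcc
Each window held the 11 bases GGGAATTTCCC, in which the 10-letter consensus matches on both strands with the matches overlapping. The block began 71, 97 and 73 bases before the start. It was present in 12 of the 32851 windows of the table (0.0365%), in 6 of the 15258 windows of genes tested, and in 3 of the 169 windows of genes apart and higher, which were these 3. The block was itself taken from the window of Cxcl1, and the 3 genes are neighbours, so nothing is read from this count. A match to the NF-kB consensus in either strand was present in 3.9% of all windows, in 4.57% of windows of genes tested and in 7.69% of the windows of 140 genes apart and higher for which the table had a start. Such a match is a description of letters, not of binding.

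Some growth factors and cytokines on the list were high in the same libraries. Csf3, which encodes G-CSF, the ligand of Csf3r, stood at 2.37, 3.76 and 0.983 FPKM against 0 to 0.274 with a median of 0.0308, a difference of 3.45 (SE 0.61). Il6 stood at 2.35, 6.63 and 1.15 FPKM against 0 to 0.233 with a median of 0.0222, a difference of 3.80 (SE 0.57). Both were close to or at 0 in most of the 9 libraries, with levels in GA 2 the lowest of the 3. Csf2, which encodes GM-CSF, was below the filter, with 1 to 2 reads in the 3 libraries and 0 to 4 in the 9. Named after their values were seen, the monocyte-attracting chemokines Ccl2, Ccl3, Ccl4 and Ccl7 and the IL-6 family member Lif completed the 11 genes, at 2.27, 3.44, 2.91, 2.87 and 1.73. Il17c, an epithelial member of the IL-17 family, stood at 3.25, 2.08 and 4.42 FPKM against 0.394 to 7.17 with a median of 1.7, and complement C3 at 13, 30.8 and 47.5 FPKM against 5.18 to 36.02 with a median of 17.1. Neither was separated, and the difference of C3 was 0.01. Named after their values were seen, Il17a and Il17f had differences of -0.28 (SE 0.88) and -0.56 (SE 0.79), the only 2 below 0 on the list. Il23a and Ccl20, also named after their values were seen, had 1.54 (SE 0.74) and 0.62 (SE 0.54). All of these overlapped between the sides.

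In the IL-1, TNF and NF-kB list 5 of 25 genes were higher and 0 lower, with a median of 0.41. Il1b (chr2:129364570-129371139), the inflammasome-processed cytokine, stood at 37.9, 63.5 and 20.5 FPKM against 0.744 to 3.43 with a median of 1.14, a difference of 4.34 (SE 0.59). Osm, an IL-6 family cytokine of neutrophils and macrophages, stood at 2.22, 3.9 and 1.73 FPKM against 0 to 0.19 with a median of 0.102, a difference of 3.58 (SE 0.53). Both genes separated the sides, with Vehicle 5 the highest library. Il1rl1, the IL-33 receptor, stood at 4.3, 21.7 and 1.49 FPKM against 0.131 to 0.615 with a median of 0.282, a difference of 3.66 (SE 0.77) that Vehicle 5 led. The inflammasome sensor Nlrp3 and the feedback inhibitor Socs3 had differences of 2.64 (SE 0.54) and 1.53 (SE 0.37). The IL-1 family members made by keratinocytes were not separated. Il36a stood at 195, 170.0 and 223 FPKM against 189 to 582 with a median of 221, and Il36g at 83.9, 102 and 76.9 FPKM against 68.5 to 189.8 with a median of 96.5. Il33 stood at 26.96, 62.03 and 31.8 FPKM against 19.04 to 118 with a median of 32.5. These 3 overlapped, with differences of -0.36, -0.02 and -0.08. The NF-kB inhibitor Nfkbia had a difference of 0.75 (SE 0.25) and overlapped as well.

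**Figure D2:**
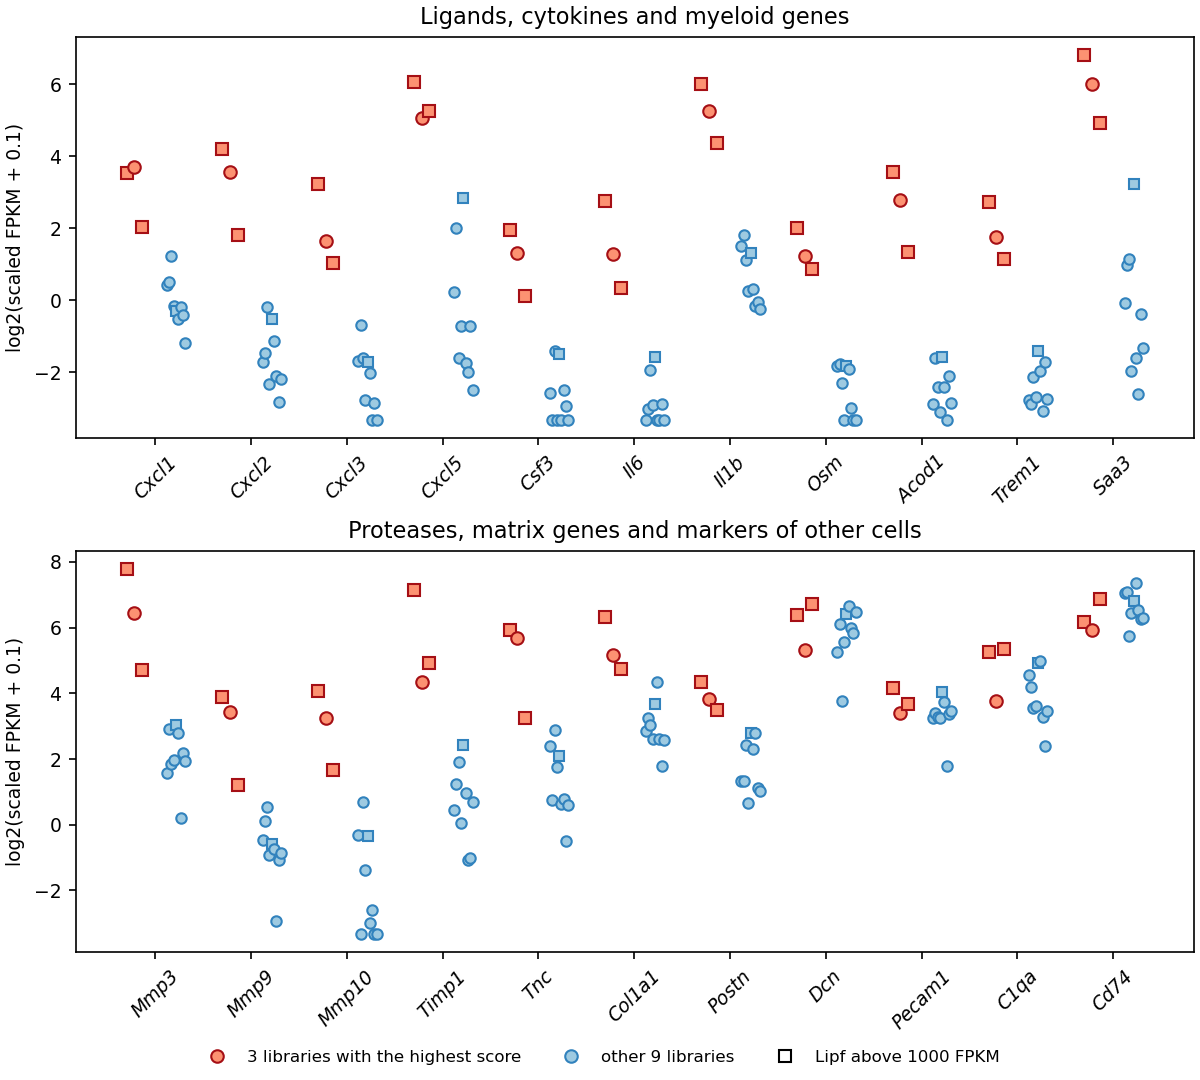
Level of selected genes in each library as log2(scaled FPKM + 0.1), with the 3 neutrophil-rich libraries in red and the other 9 in blue; squares mark libraries with Lipf above 1000 FPKM. In the upper panel red lies above blue for every gene, and in the lower panel the sides separate from Mmp3 to Postn, while Dcn, Pecam1, C1qa and Cd74 overlap.

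Of 10 endothelial genes tested 2 were higher. The selectins of activated endothelium, which slow leukocytes along the vessel wall, both stood apart. Selp was 9.17, 15.5 and 7.4 FPKM in the 3 and 0.562 to 2.59 with a median of 1.51 in the 9, a difference of 2.46 (SE 0.44). Sele was 3.02, 6.18 and 4.66 FPKM against 0.318 to 1.9 with a median of 0.843, a difference of 1.85 (SE 0.49). The structural endothelial genes Pecam1 and Cdh5 had differences of 0.06 and -0.04 and overlapped, at 10.4, 17.9 and 12.6 FPKM against 3.38 to 16.3 with a median of 10.2 for Pecam1. Icam1, a ligand of neutrophil integrins, had a difference of 0.83 (SE 0.25), under the 2-fold limit. No other gene of the list stood apart, and its median was 0.20.

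Matrix proteases and their inhibitors had a median difference of 2.19, with 7 of 15 genes higher and 0 lower. Mmp3 (chr9:7445822-7455975), the protease stromelysin-1, stood at 86.3, 219.9 and 26.1 FPKM against 1.05 to 8.19 with a median of 3.82, a difference of 3.94 (SE 0.75). Its neighbour Mmp10 (chr9:7502352-7510240), stromelysin-2, stood at 9.36, 16.7 and 3.07 FPKM against 0 to 1.5 with a median of 0.0644, a difference of 4.41 (SE 1.10). Timp1, an inhibitor of these proteases, stood at 20.4, 143 and 30.4 FPKM against 0.379 to 5.23 with a median of 1.51, a difference of 3.81 (SE 0.75). Protease and inhibitor were thus high in the same libraries, and Vehicle 5 held the highest level of all 3 genes. Plaur, the receptor of urokinase, and Adamts4, an aggrecanase, had differences of 2.69 (SE 0.65) and 2.61 (SE 0.70), and the macrophage elastase Mmp12 had 2.19 (SE 0.54). Ctsk, named after its values were seen, was the last of the 7, at 1.82. Mmp13, also named after its values were seen, had a difference of 4.38 (SE 1.25), but its 3 values of 26.5, 24.6 and 2.19 FPKM overlapped the 9, which ran from 0.0173 to 2.67 with a median of 0.443. Genes with high levels in all libraries overlapped too. Urokinase, Plau, stood at 65.6, 71 and 46.9 FPKM against 16.8 to 64.97 with a median of 32.2, Mmp2 at 29.7, 48.2 and 27.9 against 11.1 to 31.5 with a median of 21.5 and Timp2 at 29.3, 36.4 and 31.2 against 12.2 to 40.9 with a median of 25.4. Serpinb2, a urokinase inhibitor of keratinocytes, was 200.5 FPKM in Vehicle 4 but within the range of the 9 in Vehicle 5 and below all 9 in GA 2, at 27.6 FPKM.

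The windows before Mmp3 and Mmp10 (RefSeq, GRCm38.p6, plus strand, chr9:7445572-7445821 and chr9:7502092-7502341) and before Saa3 (minus strand, chr7:46715677-46715926) are printed as examples among the 15 largest differences that hold motifs of the AP-1 and C/EBP type. Capitals mark TGANTCA and TTGCNNAA, each searched on both strands.
Mmp3: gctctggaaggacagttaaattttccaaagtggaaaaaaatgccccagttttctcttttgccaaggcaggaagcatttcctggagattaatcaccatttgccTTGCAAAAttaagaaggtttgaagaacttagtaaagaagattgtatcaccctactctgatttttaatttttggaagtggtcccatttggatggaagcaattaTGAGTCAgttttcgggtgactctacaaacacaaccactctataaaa
Mmp10: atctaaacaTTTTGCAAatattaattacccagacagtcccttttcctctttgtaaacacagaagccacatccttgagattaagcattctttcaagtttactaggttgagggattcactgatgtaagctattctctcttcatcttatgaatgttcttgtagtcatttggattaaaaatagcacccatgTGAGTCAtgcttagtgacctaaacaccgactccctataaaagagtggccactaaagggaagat
Saa3: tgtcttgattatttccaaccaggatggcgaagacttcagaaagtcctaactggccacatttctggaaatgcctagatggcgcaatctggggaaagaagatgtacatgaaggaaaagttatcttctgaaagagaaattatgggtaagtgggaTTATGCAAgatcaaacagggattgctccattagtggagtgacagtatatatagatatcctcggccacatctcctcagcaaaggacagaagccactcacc
In Mmp3 the AP-1 type motif began 46 bases and the C/EBP type motif 148 bases before the start, and in Mmp10 they began 63 and 241 bases before it. Saa3 held the C/EBP type motif alone, 99 bases before the start. Il11 and Spp1, also among the 15, each held 1 motif in 1 of 2 listed windows, TGANTCA 98 bases before the start in Il11 and TTGCNNAA 156 bases before it in Spp1. TGANTCA was present in 6.75% of all 32851 windows, in 5.41% of windows of genes tested and in 12.4% of windows of genes apart and higher. For TTGCNNAA these shares were 9.56%, 8.24% and 15.4%. The windows of Stfa2l1, Acod1, Il1b, Trem1 and Timp1 held none of the 3 motifs searched. Of the 15 largest differences and Cxcl1, 13 of 16 genes had a window in the table.

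Genes of fibroblasts and matrix also stood higher, 6 of 20 apart with a median of 1.07, and their summed level was 416, 759 and 444 FPKM in the 3 and 153 to 397 with a median of 231 in the 9. The part of stroma content in these differences was not tested. Tnc, tenascin-C of wound and tumor stroma, stood at 51.4, 61.1 and 9.44 FPKM against 0.613 to 7.35 with a median of 1.61, a difference of 3.66 (SE 0.87). Col1a1, a chain of type I collagen, stood at 35.6, 79.3 and 26.6 FPKM against 3.39 to 20.5 with a median of 7.06, a difference of 2.08 (SE 0.53). Both were clear of the 9, Tnc mostly through Vehicle 4 and Vehicle 5. Col5a2, Postn (periostin), Col1a2 and Col5a1 had differences of 2.25, 1.73, 1.41 and 1.35, and Col1a2 only just cleared the 9, at 13.4, 26.8 and 13.4 FPKM against a highest value of 13.3. The other genes of the list overlapped between the sides. Dcn, decorin, stood at 39.9, 83.6 and 106 FPKM against 13.4 to 101 with a median of 63.6, and Vim at 34.1, 77.7 and 56.9 against 17.4 to 68.7 with a median of 32.7. Acta2, the actin of myofibroblasts and smooth muscle, stood at 52.9, 65.9 and 42.5 against 7.71 to 135 with a median of 21.4. All of these overlapped, with differences of -0.16, 0.30 and 0.85. Named after their values were seen, Fap (fibroblast activation protein) and Col3a1 overlapped too, at -0.72 (SE 0.49) and 1.51 (SE 0.59). Over the list 18 differences were above 0 and 2 below. Sparc stood at 60.1, 114 and 52.6 FPKM, and its lowest value, in GA 2, was under the 53.6 of the highest of the 9.

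Il11, an IL-6 family cytokine of stromal cells on none of the lists, was among the 15 largest differences. It stood at 3.22, 21.6 and 1.91 FPKM against 0.0495 to 0.777 with a median of 0.208, a difference of 4.13 (SE 0.79). Vehicle 5 exceeded the other neutrophil-rich libraries several-fold, and all 3 lay above the 9.

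The list of monocyte and macrophage genes held 3 of 19 apart, with a median of 0.32, and its summed level was 312, 764 and 481 FPKM against 115 to 340.4 with a median of 203. Spp1, osteopontin, stood at 20.4, 172 and 53.6 FPKM against 0.673 to 5.37 with a median of 1.38, a difference of 4.17 (SE 0.64), and 18.8% of its exon bases overlap another gene. Cd14, the endotoxin co-receptor, stood at 26.9, 37.4 and 14.8 FPKM against 1.2 to 5.79 with a median of 2.56, a difference of 2.93 (SE 0.50). Chil3, a chitinase-like protein, had a difference of 2.20 (SE 0.89) that was carried by Vehicle 5, at 11.1 FPKM. General macrophage genes overlapped between the sides. Lyz2 stood at 68.02, 299.6 and 197 FPKM against 28.03 to 169 with a median of 44.8 and C1qa at 13.5, 38.6 and 40.4 against 5.21 to 31.6 with a median of 12.2. Their differences were 0.81 and 0.16.

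Genes that are read as suppressive in myeloid cells held 0 of 12 apart, with a median of 0.50. Arg1, arginase, stood at 87.7, 149 and 70.4 FPKM against 51.3 to 197 with a median of 75.1, with no separation. Ptges, the prostaglandin E synthase, stood at 47.1, 24.6 and 18.4 FPKM against 13.1 to 23.7 with a median of 18.8. Its difference was 1.03 (SE 0.25), and the overlap came from GA 2 alone. Tgfb1 and Lgals9 had differences of 0.83 and 0.74.

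Lymphoid and antigen-presenting cells showed little. Genes of dendritic cells and MHC class II held 0 of 14 apart and had a median of -0.34, with Cd74 at 60.8, 72.4 and 116 FPKM against 53.4 to 163 with a median of 92.2. Of 18 T and NK cell genes 1 was higher, the median was 0.01, and the summed level was 9.94, 10.5 and 11.2 FPKM against 7.63 to 15.8 with a median of 9.68. That gene was Gzmb, granzyme B, at 1.3, 0.867 and 0.846 FPKM against 0 to 0.674 with a median of 0.292, a difference of 1.69 (SE 0.63). The T cell genes Cd5, Cd2 and Icos overlapped, at -0.02, -0.39 and -0.29. Genes of B and plasma cells held 0 of 8 apart (median -0.65), and Ighm had a difference of -1.04 with overlap. Genes of mast cells, eosinophils and basophils held 0 of 8 apart (median 0.11), and the eosinophil genes Siglecf, Epx and Prg2 were below the filter.

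**Figure D3:**
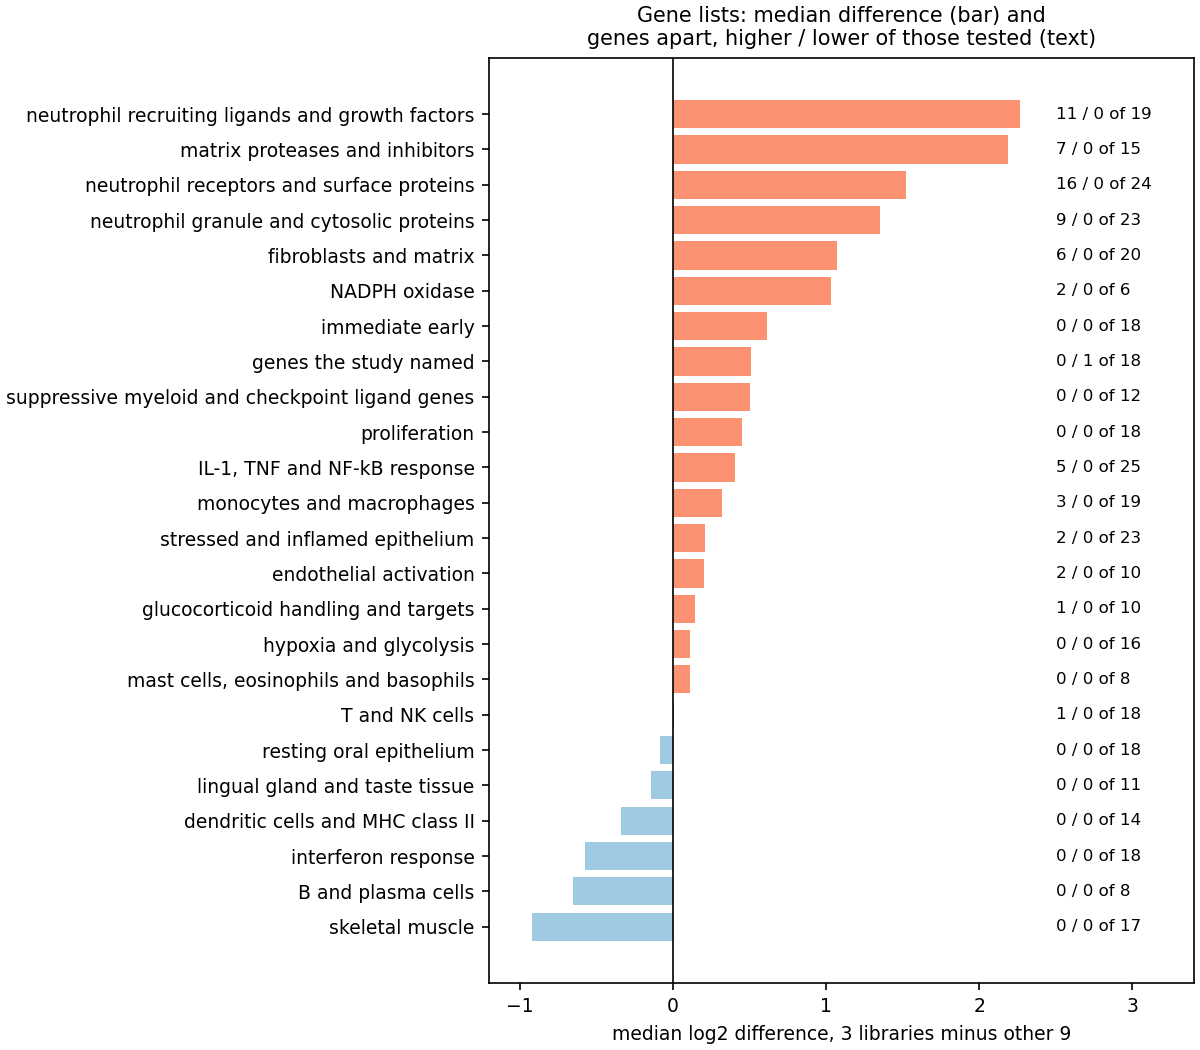
Median log2 difference between the 3 neutrophil-rich libraries and the other 9 for each gene list (bars), with the number of genes apart and higher, apart and lower, and tested. Recruiting ligands (2.27) and matrix proteases (2.19) have the largest medians and skeletal muscle (-0.92) the smallest, against 0.02 over all genes.

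Keratinocyte genes gave a mixed account. In the list of stressed and inflamed epithelium 2 of 23 genes were higher, and the median was 0.21. Saa3 (chr7:46711998-46715700), an acute-phase serum amyloid A gene with close relatives nearby, stood at 64.2, 112 and 29.9 FPKM against 0.0636 to 9.19 with a median of 0.662, a difference of 4.98 (SE 1.08). Its highest value among the 9 was that of gland-bearing Vehicle 3. Il24, an IL-20 family cytokine, stood at 8.02, 4.96 and 2.6 FPKM against 0 to 1.92 with a median of 0.0802, a difference of 4.35 (SE 1.09). The keratins of wounded and hyperproliferative epithelium did not separate. Krt6a stood at 2845, 3755 and 2540.2 FPKM against 1293 to 5684 with a median of 2522, Krt16 at 4247, 6024 and 3818 against 1625 to 8876 with a median of 4090.4 and Krt17 at 3409.9, 3428 and 2105 against 483 to 6602 with a median of 1819.8. Their differences of 0.21, 0.21 and 0.91 had SEs of 0.52, 0.61 and 0.78. In resting oral epithelium 0 of 18 genes stood apart (median -0.08). Krt4, a suprabasal keratin of oral mucosa, stood at 3052, 1974 and 956 FPKM against 2444 to 9036 with a median of 6339, and its partner Krt13 at 7047, 7554 and 5539 against 7218 to 22635 with a median of 11200.5. Krt4 was lower on average, by a log2 difference of -0.98 (SE 0.50), but Vehicle 4 lay within the 9. Basal Krt5 and Krt14 had differences of 0.37 and 0.68.

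Muscle and gland varied widely among libraries on both sides. Genes of skeletal muscle had a median of -0.92 with 0 of 17 apart, and their summed level was 3702, 4094 and 11802 FPKM in the 3 and 1907 to 15861 with a median of 7389 in the 9. Acta1 stood at 839, 1264 and 3228 FPKM against 428 to 4066 with a median of 1386. GA 2 was thus a muscle-rich library of the 3, while Vehicle 4 and Vehicle 5 were below the median of the 9. The part of muscle content in the other differences was not tested. Gland and taste genes had a median of -0.14 with the gland covariate, and 0 of 11 stood apart.

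Proliferation genes held 0 of 18 apart, although all 18 differences were above 0 (median 0.45). Mki67 stood at 25.8, 16.96 and 9.58 FPKM against 13.1 to 23.4 with a median of 17, so that Vehicle 4 was above the 9 and GA 2 below them. Interferon response genes had a median of -0.57 with 0 of 18 apart, and Isg15 stood at 3.51, 6.32 and 15.3 FPKM against 1.44 to 57.6 with a median of 10.7. Hypoxia and glycolysis genes had a median of 0.11 with 0 of 16 apart, with Ldha at 308, 310.1 and 253 FPKM against 231 to 329 with a median of 246. Immediate early genes had a median of 0.62 with 0 of 18 apart, with Junb at 160.2, 164 and 140.1 FPKM against 80.7 to 164 with a median of 112. Of 10 genes of glucocorticoid handling 1 was higher (median 0.14). It was Cebpd, a C/EBP transcription factor, at 8.7, 8.17 and 9.75 FPKM against 1.62 to 5.64 with a median of 2.67, a difference of 1.27 (SE 0.33), with 15% of its exon bases shared with another gene. The glucocorticoid targets Tsc22d3, Klf9 and Sgk1 overlapped, at -0.23, -0.38 and 0.45. Over the list 6 differences were above 0 and 4 below. Named after their values were seen, Hsd11b1, Fkbp5 and Hsd11b2 had differences of 1.68 (SE 0.64), 0.67 (SE 0.27) and 0.27 (SE 0.65). Hsd11b1 overlapped through Vehicle 4, at 1.26 FPKM against a highest value of 1.48 in the 9. Fkbp5 only just cleared the 9 and was under the 2-fold limit, and Hsd11b2 was low and overlapped.

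**Figure D4:**
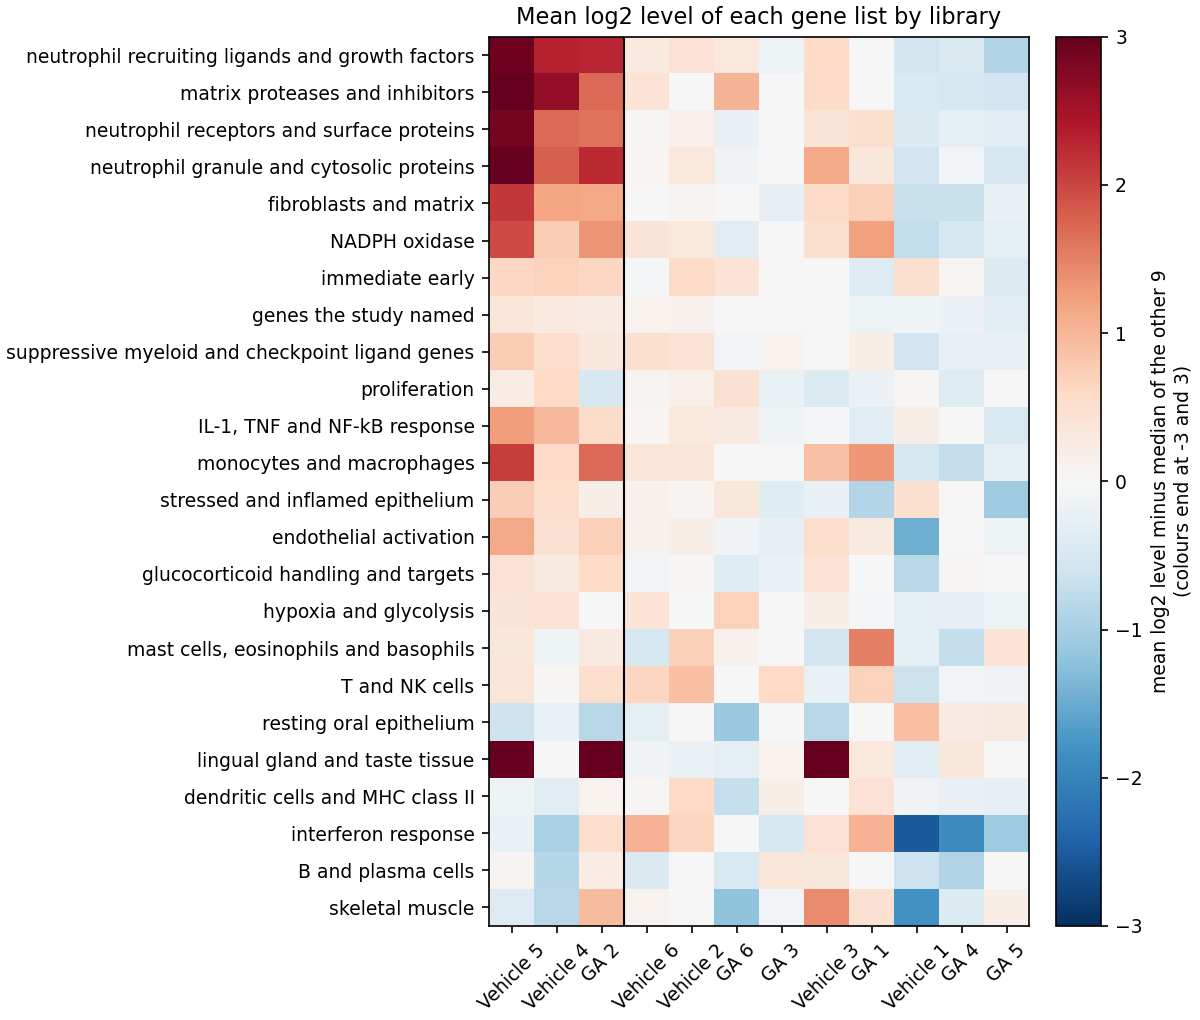
Mean log2 level of each gene list in each library, given as the difference from the median of the 9 libraries to the right of the line. Recruiting ligands, matrix proteases and the neutrophil lists are high in all 3 libraries on the left, macrophage genes are high in Vehicle 5, GA 2 and also GA 1, and gland genes are high in Vehicle 5, GA 2 and Vehicle 3.

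Only 10 genes were lower, and 4 of them averaged 1 FPKM or more. Gstm1, a glutathione S-transferase that conjugates electrophiles, stood at 96.5, 107 and 99.1 FPKM in the 3 and at 145 to 371 with a median of 237 in the 9, a difference of -1.21 (SE 0.30). It was the most abundant of them, and the 3 libraries were nearly alike. The clock gene Per3 stood at 0.42, 0.735 and 0.78 FPKM against 0.932 to 2.84 with a median of 1.37, a difference of -1.23 (SE 0.34). Cyp2s1, a cytochrome P450 of epithelia, stood at 4.89, 5.59 and 3.2 FPKM against 5.78 to 18.5 with a median of 14.2, a difference of -1.002 (SE 0.39). For Cyp2s1 the sides came within 1 FPKM of each other.

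Differences were also read within libraries of like gland content, where the rule of no overlap itself fixes their direction. Their size is tied to the choice of genes too, because the difference that chose the genes is a weighted mean of both. Nothing is therefore read from the counts that follow. Of the 200 higher genes, 164 had a difference of at least 1 both between Vehicle 4 and the 8 others without gland and between Vehicle 5 with GA 2 and Vehicle 3. Of the 10 lower genes this held for 3. Each of these comparisons has a single library on one side. The difference of Il1b was 4.68 without gland and 3.88 with gland, that of Csf3 4.14 and 2.52, and that of Il11 3.12 and 5.47. For Saa3 they were 6.74 and 2.64, since Vehicle 3 itself expressed the gene.

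**Figure D5:**
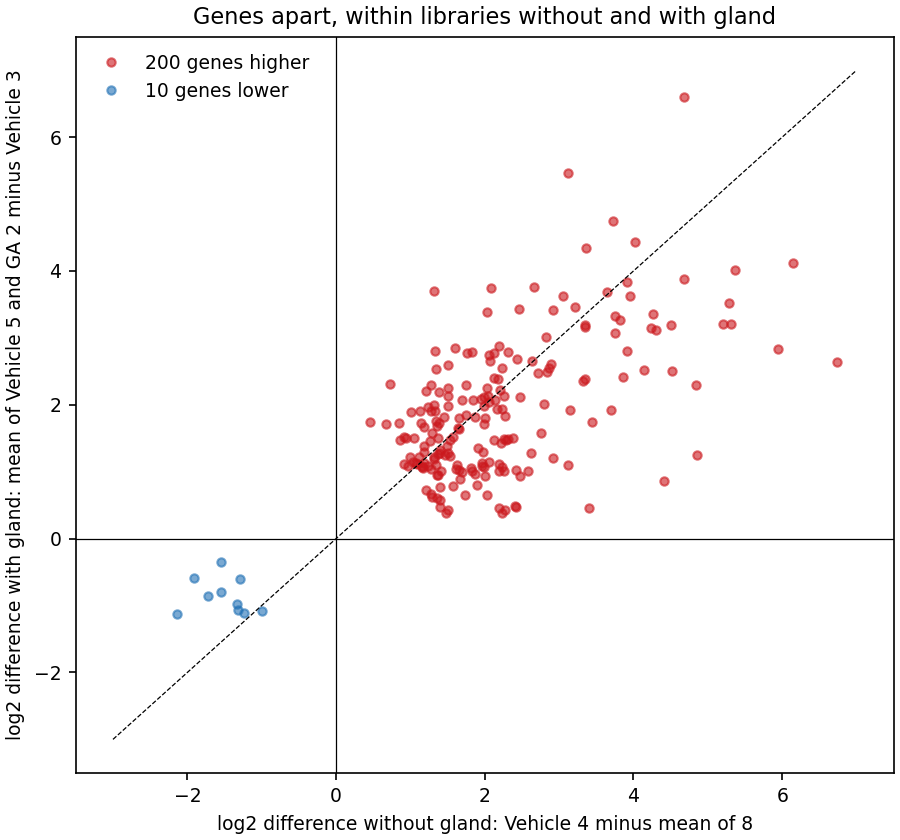
Log2 difference of each of the 210 genes apart, between Vehicle 4 and the 8 others without gland (x axis) and between the mean of Vehicle 5 and GA 2 and Vehicle 3, all with gland (y axis); red is higher and blue lower in the neutrophil-rich libraries and the dashed line marks equal differences. The rule of no overlap puts red above 0 and blue below 0 on both axes, and 164 red and 3 blue points have a size of at least 1 on both. The difference that chose the genes is a weighted mean of both axes, so size is tied to that choice as well.

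Whether the score followed treatment could be tested, because treatment was labelled. The score averaged 4.04 ± 1.46 (SD, n = 6) in vehicle and 3.10 ± 1.09 (SD, n = 6) in GA, a difference of -0.94 (two-sided exact permutation test over all assignments of 6 of 12 libraries, p = 0.214). The smallest p this design allows is 0.00216. Of the 3 neutrophil-rich libraries 2 were vehicle and 1 was GA (two-sided Fisher's exact test, p = 1, with 0.182 the smallest possible). Neither test passed a threshold of 0.05, and with 3 libraries the second could not have.

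With limma, 0 of 16852 genes (0%) differed between GA and vehicle at an adjusted p below 0.1 and a log2 fold change of at least 0.58, while 367 genes had an unadjusted p below 0.05 and no adjusted p was smaller than 0.999. The study applied these thresholds with edgeR to read counts, not to FPKM, and reported genes that passed. Over the 200 genes higher in the neutrophil-rich libraries, 192 averaged lower in GA, and the median GA effect was -0.52 on the log2 scale, against -0.01 over all genes. Because 2 of the 3 libraries were vehicle, these values share their source with the split and are no independent count. With Vehicle 4, Vehicle 5 and GA 2 left out, the median over the 200 genes was -0.06. The 200 genes were chosen because these 3 libraries lay above the rest, so nothing about treatment is read from this value. Of the 210 genes apart, 2 had an unadjusted p below 0.05 for treatment. Il1b had a GA effect of -1.65 (SE 1.09, unadjusted p = 0.155, adjusted p = 0.999 in limma), Cxcl5 of -2.70 (SE 1.50, unadjusted p = 0.0964, adjusted p = 0.999 in limma) and Mmp3 of -1.08 (SE 1.13, unadjusted p = 0.355, adjusted p = 0.999 in limma).

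Genes that the study singled out for GA treatment were read beside the split. Of 19 such genes 18 passed the filter, 0 were apart and higher and 1, Per3, was apart and lower, with a median difference of 0.51. In limma 9 of the 18 had an unadjusted p below 0.05 for GA against vehicle, against 367 of 16852 genes tested. The study chose these genes on these samples, so neither that count nor their directions under GA are independent evidence. Fos, a subunit of AP-1, stood at 34.2, 22.1 and 16.8 FPKM in the 3 and at 1.58 to 17.01 with a median of 6.46 in the 9, a difference of 2.16 (SE 0.70), and GA 2 lay just under the highest of the 9. Areg, an EGF receptor ligand, stood at 21.2, 16.3 and 8.78 FPKM against 1.54 to 9.97 with a median of 5.63, and Adam8, a metalloprotease of leukocytes, at 11, 12.9 and 4.43 against 1.58 to 5.01 with a median of 2.81. Both were above all 9 in Vehicle 4 and Vehicle 5 but overlapped through GA 2, with differences of 1.68 (SE 0.67) and 1.74 (SE 0.47). Dusp1, Has2 and Hif1a had differences of 1.02, 1.06 and 0.88, and Pappa, Ptgs1, Hmox1 and Jak2 of 0.74, 0.47, 0.54 and 0.36, all with overlap. Ccdc88b lay clear of the 9 in all 3 libraries, at 1.95, 2.17 and 1.56 FPKM against 0.57 to 1.43 with a median of 0.944, but its difference of 0.72 was under the 2-fold limit.

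On the side of genes with a higher mean in GA, Gzmm, a granzyme of NK and T cells, stood at 0.177, 0.564 and 1.56 FPKM in the 3 against 0.443 to 1.87 with a median of 1.15 in the 9. Its value in GA 2 was above the median of the 9 and its value in Vehicle 4 was the lowest of the 12. Gzmm, Cd209d and Ppargc1a had split differences of -1.38 (SE 0.52), -1.13 (SE 0.78) and -0.76 (SE 0.64). Per2 and Cd27 had -0.58 and -0.31, and Carmil2 0.04. All of them overlapped between the sides. The GA effect of Fos was -1.54 (SE 0.55, unadjusted p = 0.0161, adjusted p = 0.999 in limma), and that of Gzmm was 1.07 (SE 0.35, unadjusted p = 0.0101, adjusted p = 0.999 in limma).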

How the data were processed

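The authors made mRNA libraries of 12 tongue samples, aligned reads to mm10 (HISAT2 in the submitters' processing notes), counted uniquely mapped reads per gene and deposited FPKM values, in which reads are divided by library total and gene length. The deposited FPKM tables held 55463 rows each, of which 22965 (41.4%) had no gene name and were left out. Library totals were recovered from low values, 97.7% to 98.3% of which came out as whole reads (tolerance 0.02 reads, up to 8 reads) with GENCODE M21 exon lengths shortened by 17 to 24 bases. Read counts are given where they are low.

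The score used FPKM as deposited, and all other values were scaled by TMM (factors 0.896 to 1.07). The 16852 genes averaging 0.1 FPKM or more were fitted with limma 3.58.1 on log2(FPKM + 0.1), a scale that understates differences of low genes. The split was fitted over all 12 libraries with Lipf above 1000 FPKM (yes or no) as a covariate, for its difference and SE alone. GA was compared with vehicle over all 12 libraries without covariates, and a gene counted as called below an adjusted p of 0.1 (Benjamini-Hochberg) and at a log2 fold change of 0.58 or more in size. The fit was tested on simulated data.

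The members, gene lists and named genes were chosen with earlier results of these data known, so no list is independent support. Named were the 5 scoring genes, the 15 genes with the largest difference in each direction among those apart that averaged 1 FPKM or more, up to 6 genes apart and up to 4 other genes per list, and the genes the study named; others are said to be named after their values were seen. Some genes under this rule are not reported here. The list genes Chil1, BC100530, Il1f9, Fcrls, Trac, Lor and Muc19 had no row of that name. Nothing in the labels says that replicates came from separate animals, so p-values measure the spread between these samples. Replicate numbers were not used as pairs in the main comparisons. Deviations of same-numbered libraries correlated at -0.37 to 0.08, which cannot show whether the samples were paired by design. Whether counting used strand is not given in the sources used here, so overlapping genes are uncertain. Promoter windows came from RefSeq (GRCm38.p6).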

Additional observations from a re-analysis of the deposited data

Results flagged for a closer look

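Within each treatment group of 6 libraries, the score, list levels and other summaries were screened for a library whose gap to its nearest neighbour relative to the group's range exceeded Dixon's 95% critical value. Of 52 groups of values 3 did (5.77%), where chance gives about 1 in 20. In the GA group, GA 2 was the highest library for the list of neutrophil granule and cytosolic proteins, with a mean log2 level of 2.51 and a gap of 0.693 of the range. It was also the highest for the list of lingual gland and taste tissue, with a mean log2 level of 6.34 and a gap of 0.929, and Ltf stands on both lists. GA 2 was the only GA library among the neutrophil-rich and the only one with Lipf above 1000 FPKM. Both flags thus share their source with the split and the gland covariate and add nothing to them. GA 6 was the highest GA library for hypoxia and glycolysis genes, with a mean log2 level of 5.24 and a gap of 0.713, and it lay outside the neutrophil-rich libraries.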

How the results depend on the processing

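The counts of 200 higher and 10 lower genes moved with the settings, and with FPKM unscaled the median over all genes shifted from 0.02 to 0.14. Higher and lower genes numbered 97 and 1 with a pseudocount of 1, 100 and 4 with a filter of 1 FPKM, 761 and 296 without gland-bearing libraries, 596 and 179 within vehicle, 1143 and 348 within GA and 829 and 1113 within gland-bearing libraries, the last chosen after seeing the data. These last 4 leave 1 or 2 libraries on a side, where the rule of no overlap is easier to meet. With the 4 highest libraries in place of 3 there were 34 and 3, of which 20 and 1 were shared with the 200 and 10, and with the 2 highest 251 and 43 (118 and 3 shared). Lower genes numbered 18 with a pseudocount of 0.01, 5 unscaled and 40 at a log2 difference of at least 0.58. Leaving out 1 library gave 195 to 353 higher and 11 to 58 lower genes. Both passed 1.5 times the count without Vehicle 4 (319 and 40) or GA 2 (353 and 58), as did the lower genes without Vehicle 1 (16), Vehicle 3 (27), Vehicle 5 (33) or GA 6 (42). Over 51 named genes and 1467 values under these settings, 0 reversed and 133 moved by more than 1 SD. For a gene that is apart, the rule of no overlap largely fixes the direction beforehand, so nothing is read from the 0. For GA against vehicle the count stayed at 0 except for 1 gene without Vehicle 4 (the small RNA gene Gm25290, named after its values were seen). The leave-one-out range was 0 to 1. With a replicate block, 0 genes were called (230 at an unadjusted p below 0.05), and the score difference was -0.94 (exact sign-flip permutation p = 0.438). The score difference lay between -1.32 and -0.50 when 1 library was left out, and its exact permutation p between 0.106 and 0.442. No alternative changed the call of the score.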

Other observations

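The 135 genes that stood apart and higher without being on a list were looked through after their values were seen. Several are receptors or adaptors of myeloid cells. The lectin receptors Clec4n (dectin-2) and Clec7a (dectin-1), which bind fungal sugars, stood at 5.2, 11.5 and 4.68 FPKM and 4.77, 7.91 and 4.83 FPKM in Vehicle 4, Vehicle 5 and GA 2, and at 0.588 to 1.94 with a median of 1.12 and 0.555 to 3.09 with a median of 0.851 in the other 9. Their log2 differences were 2.11 (SE 0.39) and 2.05 (SE 0.53). Tyrobp, the adaptor through which Trem1 signals, stood at 16.4, 39.2 and 19.7 FPKM against 2.96 to 14.3 with a median of 6.26, and Tlr2 at 3.57, 6.76 and 3.94 FPKM against 0.86 to 1.81 with a median of 1.53. Ccr1, the receptor of Ccl3 and Ccl7, and Cxcr4, a receptor that retains neutrophils in marrow, had differences of 2.13 (SE 0.33) and 2.01 (SE 0.47). Srgn, the proteoglycan core of leukocyte granules, stood at 16.3, 33.4 and 13.3 FPKM against 1.61 to 6.48 with a median of 3.75, and Itgb2, the beta chain of leukocyte integrins, at 6.24, 12.2 and 5.99 FPKM against 1.34 to 5.8 with a median of 2.42.

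Stromal genes on no list stood apart as well. Grem1, a BMP antagonist of fibroblasts, stood at 8.36, 13.5 and 1.94 FPKM against 0.239 to 1.37 with a median of 0.405, a difference of 3.24 (SE 0.66). Pdpn, podoplanin, stood at 16.03, 33.7 and 17.1 FPKM against 2.43 to 11.6 with a median of 6.1, and Cxcl14, a chemokine of epithelium and fibroblasts, at 36.3, 59.5 and 46.98 FPKM against 5.87 to 23.9 with a median of 8. The transcription factor Snai1, known from epithelial-mesenchymal transition, had a difference of 1.61 (SE 0.38). Although the list of skeletal muscle genes had a median below 0, the troponin genes of slow muscle, which are not on it, stood apart and higher. Tnnc1 was 1.38, 5.17 and 1.3 FPKM against 0 to 0.405 with a median of 0.112, Tnni1 1.02, 1.87 and 0.967 against 0.137 to 0.478 with a median of 0.282 and Tnnt1 3.7, 7.04 and 10.5 against 0.502 to 2.69 with a median of 1.23. Their differences were 3.13 (SE 0.64), 1.72 (SE 0.35) and 1.65 (SE 0.38), while Atp2a2 and Tpm3, which slow muscle also uses, had 0.31 and 0.53, under the 2-fold limit. Which cells these reads came from was not tested.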
